A study of Mus musculus with 2 samples.

Results

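The genes followed here are 10 genes of monocytes and macrophages, read in single cells: the receptors Csf1r, Ccr2, Fcgr3, Cd14 and Clec4n, the membrane proteins Ms4a6c and Igsf6, and the effectors Lyz2, Lpl and F13a1. They were chosen by symbol, and all 10 were found among the 28692 genes listed for both libraries. Each library was droplet single-cell RNA from mouse bone marrow LSK cells (lineage-negative, Sca-1-positive, Kit-positive cells, a fraction rich in stem and progenitor cells) of the C57BL/6 strain. One library held LSK cells infected with a retrovirus carrying an shRNA against Cxxc5, and the other LSK cells with a control shRNA that targets no mouse gene. Infected cells, which carry GFP, were collected by flow sorting and cultured until day 3 in 20% serum, 10 ng/ml GM-CSF and 10 ng/ml SCF, factors that drive myeloid growth. Each library pooled 5 samples from C57BL/6 mice, so there was 1 library per group and no replicate. No difference below has a replicate check, no p-value was computed, and the 95% intervals cover counting error only.

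After filtering, 6004 Cxxc5 knockdown cells had a median of 10599 UMIs (unique molecular identifiers, each counted as 1 captured transcript) and 2912 control cells a median of 17197. The targeted gene Cxxc5 had 73 UMIs in the knockdown library, against 462 in the control library, or 1.16 and 9.38 UMIs per 1000000 UMIs of the same cells (CPM). The libraries shared 26 cell barcodes, and leaving those cells out gave the same count of lower genes. Levels are given as CPM over groups of cells. They come from tags at the 3' end of transcripts and are compared here between cells and libraries for 1 gene at a time, not between genes.

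Monocytes arise in the marrow from granulocyte-monocyte progenitors, and the genes followed here serve successive steps of their life. CSF1R receives the growth factors CSF1 and IL-34 that keep monocytes and macrophages alive, and CCR2 receives the chemokine CCL2 that draws monocytes out of the marrow. CD14, the Fc gamma receptor III and the lectin CLEC4N (Dectin-2) recognise bacterial lipopolysaccharide, antibody complexes and fungal mannans, and the last of these signals through an Fc receptor chain shared with other receptors. Lysozyme M, lipoprotein lipase and the factor XIII A subunit are secreted or stored products. Several of these genes are also used by neutrophils, dendritic cells or progenitors, so their place in this culture was read from the cells themselves.

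In GRCm38, annotated by GENCODE M21, all 10 are protein-coding genes on 9 chromosomes. Ccr2 spans chr9:124101950-124113557 and Ms4a6c chr19:11469366-11482192, both on the plus strand. Fcgr3 lies at chr1:171051174-171064935, Igsf6 at chr7:121064067-121074572, Lyz2 at chr10:117277331-117282321 and F13a1 at chr13:36867178-37050244, all on the minus strand. Lpl lies at chr8:68880491-68907448 and Clec4n at chr6:123229843-123247021 on the plus strand.

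Promoter sequence was at hand for 6 of the 10 genes, as RefSeq windows from 250 bases before to 50 bases after each start in GRCm38.p6. The windows of 4 are shown because they stand for the patterns described further on. Ccr2 and Ms4a6c had their highest levels in the same clusters, while Fcgr3 and Igsf6 were spread over most clusters. Capitals mark matches on either strand to GAGGAA, an ETS motif of the PU.1 kind, or to TTGCNNAA, a C/EBP motif. Neither motif was found in the first pair, Fcgr3 had 1 match to each, and Igsf6 had 1 match to GAGGAA. The windows are chr9:124101933-124102232 (plus strand) for Ccr2, chr19:11469118-11469417 (plus strand) for Ms4a6c, chr1:171059354-171059653 (minus strand) for Fcgr3 and chr7:121074481-121074780 (minus strand) for Igsf6, each printed 5′ to 3′ along its gene. The RefSeq start of Fcgr3 lies inside the longer GENCODE span given above, as does its whole window. Most of the Ccr2 window also lies inside the GENCODE span of that gene.
Ccr2: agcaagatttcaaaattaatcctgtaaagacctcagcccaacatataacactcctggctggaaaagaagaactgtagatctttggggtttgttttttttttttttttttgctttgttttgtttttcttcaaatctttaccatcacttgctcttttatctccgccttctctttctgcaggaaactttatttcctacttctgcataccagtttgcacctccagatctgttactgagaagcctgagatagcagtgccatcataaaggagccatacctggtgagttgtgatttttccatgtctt
Ms4a6c: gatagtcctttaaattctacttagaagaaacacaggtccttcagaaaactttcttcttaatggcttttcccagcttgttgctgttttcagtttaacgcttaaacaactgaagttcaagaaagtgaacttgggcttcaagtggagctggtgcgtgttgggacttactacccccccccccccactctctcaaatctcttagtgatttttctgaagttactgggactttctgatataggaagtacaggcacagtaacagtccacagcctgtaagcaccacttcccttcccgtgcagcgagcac
Fcgr3: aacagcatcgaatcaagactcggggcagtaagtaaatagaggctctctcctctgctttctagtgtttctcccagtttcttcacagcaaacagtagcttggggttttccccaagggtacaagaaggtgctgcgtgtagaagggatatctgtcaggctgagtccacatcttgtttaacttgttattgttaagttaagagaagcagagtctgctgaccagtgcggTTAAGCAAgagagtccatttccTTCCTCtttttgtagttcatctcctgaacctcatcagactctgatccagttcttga
Igsf6: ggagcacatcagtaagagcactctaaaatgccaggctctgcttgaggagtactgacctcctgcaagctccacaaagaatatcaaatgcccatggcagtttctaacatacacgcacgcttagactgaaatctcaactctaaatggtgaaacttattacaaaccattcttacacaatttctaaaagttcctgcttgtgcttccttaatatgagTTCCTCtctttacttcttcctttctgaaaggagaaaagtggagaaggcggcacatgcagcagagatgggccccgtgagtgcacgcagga

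GAGGAA occurred in 28.3% of 27025 promoter windows of this length, TTGCNNAA in 10.8%. Of the genes not printed, F13a1 had 2 matches to GAGGAA and Lyz2 had a match to neither. The composite ETS and IRF motif (2.79% of windows) and the KLF motif CACCC (56.7% of windows), also searched on both strands, had no match in any of the 6. These matches describe letters in a short window and nothing about binding.

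Cells were grouped by clustering both libraries together, with the 10 genes left out of both the clustering and the naming. Cluster 6 was monocyte-macrophage-like. Its leading genes included Klf4, Irf8 and Ctss, and Mpeg1, Adgre1, Cd68, Tgfbi and Pld4 were raised there too. It held 549 knockdown cells (9.14%, interval 8.43% to 9.90%) and 380 control cells (13.0%, 11.8% to 14.3%). Its 10 leading genes were themselves lower in the knockdown cells of the cluster (median log2 ratio -0.27), so these shares are not read as a difference in cell number. Cluster 5 was dendritic cell-like (Cd74, Ccl17, H2-Aa), with 142 knockdown and 101 control cells. The 10 leading genes of cluster 5 were also lower in its knockdown cells (median log2 ratio -0.81). Clusters 4 and 7 were neutrophil-like, led by Stfa1, Fcnb and S100a9 in cluster 4 and by Ltf, Ly6g and Camp in cluster 7. Cluster 0 was granulocyte-monocyte progenitor-like (Elane, Ctsg, Prss57). Clusters 1, 2, 3 and 8 stayed unnamed. Cluster 8, with 35 and 18 cells, and the mast cell-like cluster 9, with 19 and 10 cells, were too small to compare, which leaves 8 clusters.

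The 10 genes did not share 1 cell population. For Ms4a6c, Csf1r, Lpl, Ccr2, F13a1 and Lyz2 the level in the monocyte-macrophage-like cluster was 2.87 to 9.79 times that of all other cells together, across both libraries. Of these 6, F13a1 alone had its highest level in that cluster in both libraries. Csf1r and Ms4a6c were highest in the dendritic cell-like cluster, and Lyz2 in neutrophil-like cluster 7. Ccr2 was also highest in the dendritic cell-like cluster, beyond the intervals in the knockdown library only. In the control library its levels were 164 CPM (143 to 188) there and 149 CPM (140 to 158) in the monocyte-macrophage-like cluster, with overlapping intervals. Lpl was highest in the monocyte-macrophage-like cluster in the knockdown library, and in the control library the intervals of that cluster and the dendritic cell-like one overlapped. Fcgr3 was close to even, at 1.10 times the outside level in knockdown cells and 1.12 times in control cells. Cd14 stood at 1.31 times in knockdown and 1.58 times in control cells. Igsf6 was lower inside the cluster than outside it, at 0.626 times and 0.687 times. Clec4n belonged mainly to the dendritic cell-like cluster, which held 64 of its 73 UMIs in the knockdown library and 181 of 239 in the control library. The word "monocyte" therefore did not single out where most of these genes were highest in this culture. The monocyte-macrophage-like cluster held between 36.2% and 50.2% of the knockdown UMIs of Csf1r, Ccr2, F13a1, Ms4a6c and Lpl, and between 47.2% and 61.6% of their control UMIs. Of the Lyz2 UMIs it held 24.4% in the knockdown and 32.0% in the control library, where neutrophil-like cluster 4 held 27.1% and 27.5% and cluster 7 held 21.8% and 22.0%.

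**Figure D1:**
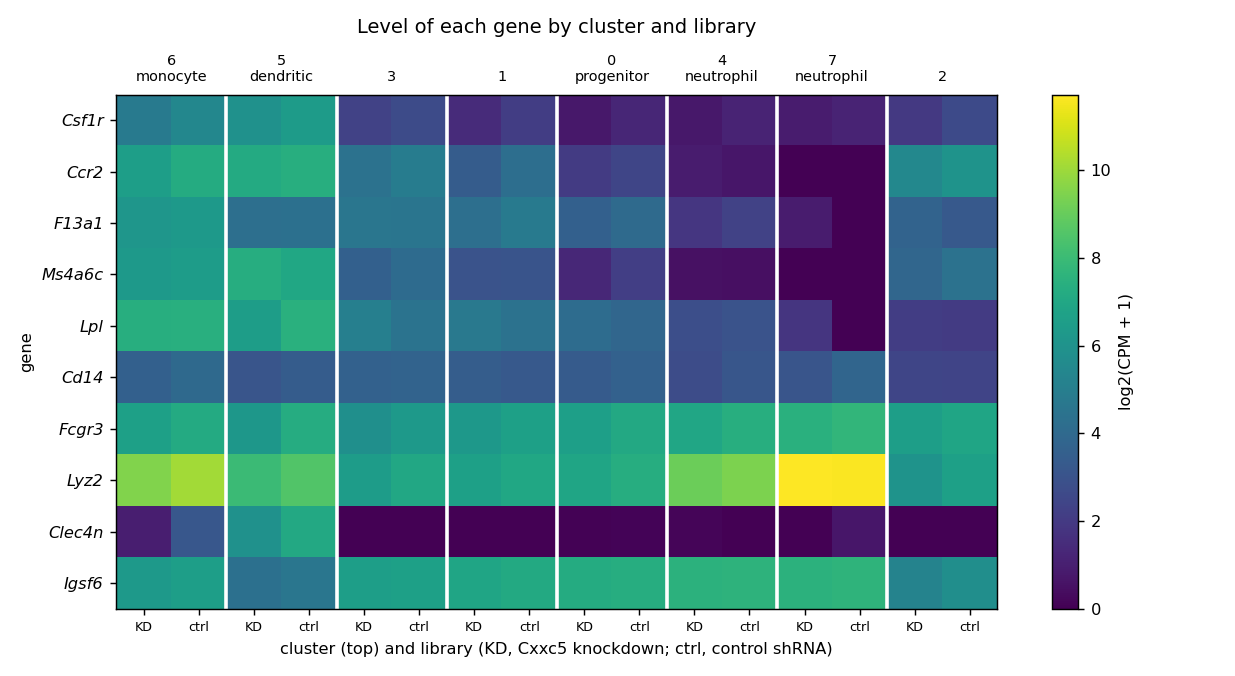
Level of each of the 10 genes, as log2(CPM + 1), in the 8 larger clusters (50 or more cells per library), with Cxxc5 knockdown (KD) left of control shRNA (ctrl). Clusters are named as monocyte-macrophage-like (6), dendritic cell-like (5), progenitor-like (0) and neutrophil-like (4 and 7), and those without a name are unnamed. Csf1r, Ccr2 and Ms4a6c are bright in clusters 5 and 6 and dark in clusters 4 and 7, Lyz2 is brightest in cluster 7 at 3402 CPM in knockdown and 3293 CPM in control cells, and Clec4n is dark outside clusters 5 and 6.

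Of the receptors for growth factor and chemokine, Csf1r (chr18:61100598-61132149, plus strand) was lower in the knockdown library. Over all cells it had 337 UMIs (5.36 CPM) in the knockdown library, against 527 UMIs (10.7 CPM) in the control library, a log2 ratio of -0.997 (interval -1.20 to -0.80). In the monocyte-macrophage-like cluster its level was 26.7 CPM (22.8 to 31.1) in knockdown cells and 42.0 CPM (37.4 to 47.2) in control cells, a log2 ratio of -0.65 (-0.94 to -0.37). Outside it the levels were 3.02 and 5.55 CPM, a log2 ratio of -0.88. The pooled levels thus differed on both sides of the class boundary, with intervals that did not overlap on either side. The dendritic cell-like cluster held 66 of the 171 outside UMIs in the knockdown and 114 of 235 in the control library. By cluster, Csf1r was lower in 6 of the 6 with at least 20 of its UMIs. The ratio interval lay below 0 in 2, the monocyte-macrophage-like and dendritic cell-like clusters. The dendritic cell-like cluster had the highest Csf1r level in both libraries, 61.1 CPM in knockdown and 85.9 CPM in control cells, apart from the monocyte-macrophage-like cluster beyond the counting intervals. In the 2 neutrophil-like clusters it was at most 1.24 CPM in either library.

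Ccr2 showed the widest gap of the 10 in the share of monocyte-macrophage-like cells with a UMI. Its level inside the monocyte-macrophage-like cluster was 93.3 CPM (85.8 to 101) in knockdown cells, against 149 CPM (140 to 158) in control cells, a log2 ratio of -0.67 (-0.82 to -0.52). Outside it the levels were 15.2 and 22.8 CPM, a log2 ratio of -0.58. For shares at equal depth, 5000 UMIs were drawn from every cell, and 641 knockdown and 115 control cells with fewer were set aside. Of the thinned cells in the cluster, 29.7% (25.8% to 33.9%) of knockdown and 47.8% (42.6% to 53.1%) of control cells had a Ccr2 UMI. Unthinned, the shares were 49.7% and 81.6%. Neutrophil-like cluster 7 gave the background: 0 of 178 knockdown and 0 of 163 control cells had a Ccr2 UMI, at median depths of 6268.5 and 9078 UMIs, which allows shares up to 1.69% and 1.84%. The next population with Ccr2 was the unnamed cluster 2, led by Prss34, Hbb-bt, Gata2 and Cpa3, at 43.8 CPM in knockdown and 63.2 CPM in control cells. That cluster mixes genes of basophils, mast cells and megakaryocytes. In the dendritic cell-like cluster Ccr2 levels were 143 CPM (122 to 168) and 164 CPM (143 to 188), intervals that overlap.

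Ms4a6c, a membrane-spanning protein of the MS4A family, followed Ccr2 closely from cluster to cluster but not in its ratio. Over all cells it had 15.5 CPM in the knockdown library and 22.4 CPM in the control library, a log2 ratio of -0.53 (-0.66 to -0.41). Its levels in the monocyte-macrophage-like cluster were 78.8 CPM (71.9 to 86.1) and 88.5 CPM (81.7 to 95.8), and the log2 ratio of -0.17 had an interval that reached 0.00. The knockdown library was also weighted to the cluster shares of the control library, taken as shares of UMIs and not of cells. The log2 ratio over all cells was then -0.18. The dendritic cell-like cluster held its highest level, 155 CPM in knockdown and 126 CPM in control cells. Of the 6 clusters with at least 20 UMIs of the gene, this was the 1 where it was higher in knockdown cells, with an interval from -0.01 to 0.62. At 5000 UMIs per cell, 26.3% of knockdown and 34.6% of control monocyte-macrophage-like cells had an Ms4a6c UMI, against 0 cells of neutrophil-like cluster 7 in either library.

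Among the receptors for microbes and antibody, Fcgr3, the low-affinity receptor for immunoglobulin G complexes, was detected in every cluster and lower in the 8 that were compared. Over all cells it had 91.6 CPM in the knockdown library and 129 CPM in the control library, a log2 ratio of -0.50 (-0.55 to -0.45). Its log2 ratio was -0.52 inside the monocyte-macrophage-like cluster and -0.49 outside it. In each of the 8 clusters the interval lay below 0, from -0.28 in neutrophil-like cluster 7 to -1.05 in the dendritic cell-like cluster. The 5th to 95th percentiles over all measured genes were -0.96 to 0.86 in cluster 7 and -0.88 to 0.88 in the dendritic cell-like cluster. In clusters 1, 2 and 4 the Fcgr3 ratios of -0.41, -0.34 and -0.38 also lay above the 5th percentiles there, -0.42, -0.40 and -0.39. In clusters 0, 3 and 6 they lay below the 5th percentile. The highest Fcgr3 levels were in cluster 7, at 173 CPM in knockdown and 210 CPM in control cells. At 5000 UMIs per cell, 39.4% and 44.8% of monocyte-macrophage-like cells had a UMI, and 33.1% and 42.7% of the other cells.

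Cd14 (chr18:36725067-36726798, minus strand), the co-receptor for lipopolysaccharide, was rare throughout. It had 8.88 CPM in the knockdown library and 10.4 CPM in the control library (log2 ratio -0.22, -0.40 to -0.05). Monocyte-macrophage-like cells had 70 UMIs in the knockdown library, or 11.3 CPM, and 105 UMIs in the control library, or 15.1 CPM. The log2 ratio there, -0.42, had an interval from -0.88 to 0.03. No 2 neighbours in the order of the 8 clusters were apart beyond their intervals in either library. The share of thinned monocyte-macrophage-like cells with a UMI was 3.67% in knockdown and 7.14% in control cells, and that of the other cells 4.09% and 4.69%. Detection in the cluster thus lay near that of the rest of the culture in knockdown cells. In control cells the Cd14 level was 15.1 CPM (12.4 to 18.3) in the cluster and 9.59 CPM (8.68 to 10.6) outside it.

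Clec4n was carried by few cells. In the dendritic cell-like cluster its level was 59.2 CPM (45.6 to 75.6) in knockdown cells and 136 CPM (117 to 158) in control cells, a log2 ratio of -1.20 (-1.64 to -0.78). At 5000 UMIs per cell, 11.8% of knockdown and 29.2% of control cells of that cluster had a UMI, and in unnamed cluster 3 there were 0 Clec4n UMIs in either library. In the monocyte-macrophage-like cluster it had 6 UMIs in knockdown cells and 56 in control cells. Of those 56, 32 came from 1 control cell, which also held 63 Lpl, 9 Csf1r and 5 Ccr2 UMIs. Without the richest cell of each library, 4 and 24 UMIs remained, or 0.645 and 3.47 CPM. The 9 dendritic cell markers moved with it: over all cells they summed to 81.2 CPM in the knockdown and 211 CPM in the control library, and 5 of 5 measured were at least 1.2-fold lower. Their part in the Clec4n and Csf1r values over all cells was not tested. With a mean under 5 CPM over all cells, Clec4n is not among the 9 genes counted below.

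Igsf6, an immunoglobulin-family membrane protein, ran opposite to the Ccr2 pattern. Its levels were highest in the neutrophil-like clusters, 188 CPM in knockdown and 198 CPM in control cells of cluster 7, and 187 and 193 CPM in cluster 4. The dendritic cell-like cluster had the lowest, 19.4 CPM in knockdown and 23.4 CPM in control cells. In the monocyte-macrophage-like cluster the levels were 77.0 CPM (70.2 to 84.2) and 93.7 CPM (86.7 to 101), a log2 ratio of -0.28 (-0.46 to -0.11). Over all cells the log2 ratio was -0.14 (-0.19 to -0.09), the nearest to 0 of the 10. It was below 0 in 8 of 8 clusters, with an interval below 0 in 4.

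Of the effectors, Lyz2 was lower in knockdown cells with an interval below 0 in 7 of 8 clusters. In clusters 1, 4 and 5 the log2 ratios of -0.35, -0.31 and -0.54 lay within the 5th to 95th percentiles over all measured genes. In clusters 0, 2, 3 and 6 they lay below the 5th percentile. The Lyz2 level over all cells was 293 CPM in the knockdown library and 489 CPM in the control library, a log2 ratio of -0.74 (-0.77 to -0.71). Within the monocyte-macrophage-like cluster it was 724 CPM (703 to 745) in knockdown cells and 1110 CPM (1085 to 1135) in control cells, a log2 ratio of -0.62. The exception was neutrophil-like cluster 7, where the level was highest: 3402 CPM in knockdown and 3293 CPM in control cells, a log2 ratio of 0.05 (-0.01 to 0.11). Weighted to each cluster's share of the control library's UMIs, the all-cell log2 ratio was -0.33. The near copy Lyz1, which lies beside Lyz2 on chromosome 10, had 3 UMIs in the knockdown library and 6 in the control library. How reads matching both copies were counted is not given in the sources used here, so the split between them is uncertain.

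Lpl, the secreted enzyme that releases fatty acids from lipoproteins, had overlapping intervals in the libraries inside the monocyte-macrophage-like cluster. It had 165 CPM (155 to 176) in knockdown cells and 170 CPM (160 to 180) in control cells, a log2 ratio of -0.04 (-0.16 to 0.08). The share of thinned cells with a UMI was 43.4% (39.1% to 47.8%) and 41.8% (36.6% to 47.0%). Outside it the gene was slightly higher in knockdown cells, 19.3 CPM against 17.3 CPM in control cells, with a log2 ratio of 0.15 (0.01 to 0.29). Unnamed cluster 3 and the dendritic cell-like cluster differed in direction. In unnamed cluster 3 it had 32.4 CPM in knockdown and 20.9 CPM in control cells (log2 ratio 0.63, 0.37 to 0.90), and among dendritic cell-like cells 92.6 and 172 CPM (log2 ratio -0.89, -1.25 to -0.55). The Lpl values depend on where the class ends and on few cells. At a finer clustering (Leiden resolution 1.0) the log2 ratio was 0.34 inside the class and -0.46 outside it. With the class taken as cells with at least 0.2% of their UMIs in its markers, 21 knockdown and 22 control cells, it was -3.50 inside, and without the 10 cells of each library richest in the gene it was 0.41 outside.

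F13a1, the A subunit of clotting factor XIII, was concentrated in the monocyte-macrophage-like cluster, above every other cluster in both libraries beyond the intervals. Its levels there were 69.7 CPM (63.3 to 76.6) in knockdown cells and 78.8 CPM (72.3 to 85.6) in control cells. The log2 ratio of -0.18 had an interval from -0.36 to 0.01. Over all cells the levels were 19.0 and 23.5 CPM, a log2 ratio of -0.31 (-0.43 to -0.19). At 5000 UMIs per cell, 24.3% and 26.1% of cells in the cluster had a UMI.

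**Figure D2:**
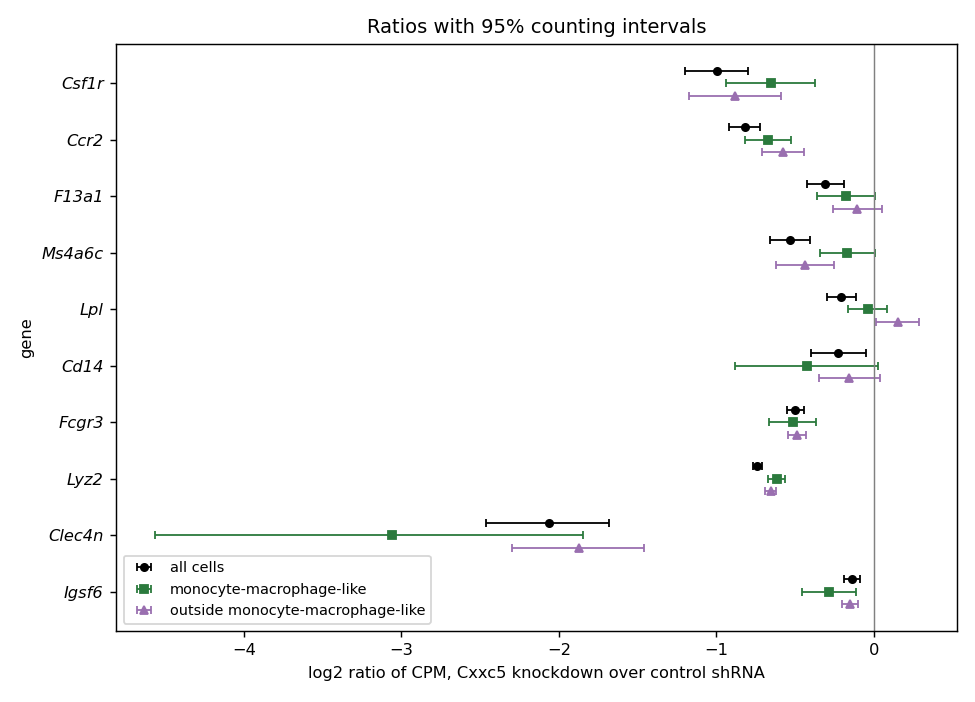
Log2 ratio of CPM, Cxxc5 knockdown over control shRNA, for the 10 genes over all cells (black circles), in monocyte-macrophage-like cells (green squares) and outside them (purple triangles), with 95% counting intervals as bars. Csf1r, Ccr2, Fcgr3, Lyz2, Clec4n and Igsf6 lie below 0 with their intervals in all 3 groups of cells, while the intervals of F13a1, Ms4a6c, Lpl and Cd14 reach 0 in monocyte-macrophage-like cells.

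Counted together, 9 of the 10 genes had a mean of at least 5 CPM over all cells. Of these, 6 (Csf1r, Ccr2, F13a1, Ms4a6c, Fcgr3 and Lyz2) were at least 1.2-fold lower in the knockdown library and 0 were at least 1.2-fold higher, where 5.74% of the 8176 genes measured were that much lower and 4.2% that much higher. At least 1.5-fold lower were 3 (Csf1r, Ccr2 and Lyz2), against 1.11% of all genes. The median log2 ratio of the 9 was -0.50, beside 0.03 over all measured genes. With the control library's cluster shares of UMIs the median of the 9 was -0.28. Genes outside the set were not weighted this way, so no share of all genes stands beside this recount. Csf1r (-0.64) was then the 1 gene of the 9 at least 1.5-fold lower, with Ccr2 at -0.57 and Lyz2 at -0.33. F13a1 (-0.21) and Ms4a6c (-0.18) were no longer at least 1.2-fold lower, while Cd14 (-0.28) was. In the monocyte-macrophage-like cluster 9 were measured, 6 (Csf1r, Ccr2, Cd14, Fcgr3, Lyz2 and Igsf6) were at least 1.2-fold lower and 0 were higher, where 11.8% of 8209 genes were lower and 10.5% higher. Their median there was -0.42, beside 0.01 for all genes. Outside the cluster Csf1r also fell short of 5 CPM, so 8 were measured. Of these, 4 (Ccr2, Ms4a6c, Fcgr3 and Lyz2) were lower and 0 higher, against 5.87% and 5.11% of 8146 genes, with a median of -0.30 beside 0.03. The 10 genes were chosen with earlier results of these libraries known, so these counts describe the set and do not test it.

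Other signals in the monocyte-macrophage-like cluster also differed between libraries. The 13 neutrophil markers summed to 1477 CPM in its knockdown cells and 2071 CPM in its control cells. Per cell this sum ranged between 0 and 61867 CPM in knockdown cells, with a median of 435, and between 0 and 79017 CPM in control cells, with a median of 462. The 10 richest cells held 39.5% of these UMIs in the knockdown and 66.4% in the control library. Of the 13 markers, 9 were measured in the cluster, 5 at least 1.2-fold lower and 1 higher (median log2 ratio -0.44). All genes there stood at 11.8% lower and 10.5% higher. Over all cells 6 of 12 measured neutrophil markers were lower and 0 higher (median -0.27). Of 9 monocyte-macrophage markers measured over all cells, 7 were lower and 1 higher (median -0.48), beside 5.74% and 4.2% of all genes. Inside the cluster again, Retnlg was at 0 in knockdown cells and had 1 UMI in control cells. The 9 dendritic cell markers summed there to 33.3 CPM in knockdown and 33.5 CPM in control cells. Of these, Cd209a and Xcr1 were at 0 in the cluster in both libraries and Siglech was at 0 in its control cells. The progenitor markers, 8 genes, summed to 9537 and 9019 CPM in the cluster. Lists for mast cells, basophils, megakaryocytes, multipotent progenitors, erythroid cells, eosinophils, lymphoid and stromal cells each summed there to at most 48.8 CPM (knockdown) and 49.4 CPM (control). The cells of the cluster were also shallower in the knockdown library, at a median of 11465 UMIs, against 18860 in control cells. The part of the neutrophil markers in these results was not tested. Thinned to 5000 UMIs per cell, the median log2 ratio of the measured genes was -0.47 in the cluster.

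**Figure D3:**
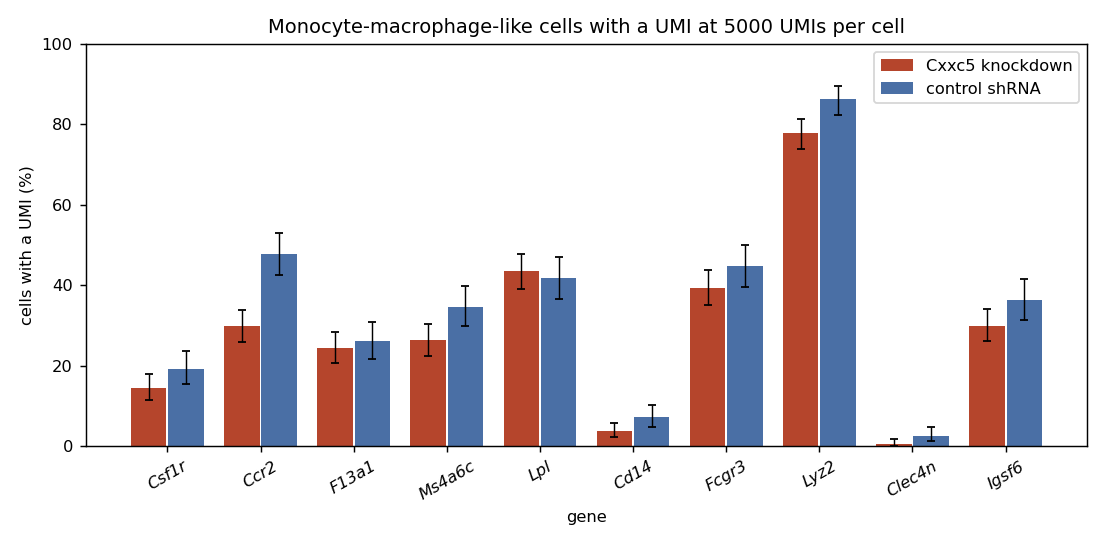
Share of monocyte-macrophage-like cells with at least 1 UMI of each gene after thinning each cell to 5000 UMIs, for Cxxc5 knockdown (red, left; 518 cells) and control shRNA (blue, right; 364 cells), with exact 95% binomial intervals. Ccr2 has the widest gap, 29.7% in knockdown and 47.8% in control cells, and Lpl is the gene with the higher share in knockdown cells.

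Detection of several of the genes in 1 cell was next compared at equal depth. At 5000 UMIs per cell, 20.5% of 5363 knockdown cells (19.5% to 21.7%) and 30.7% of 2797 control cells (29.0% to 32.5%) had UMIs of at least 3 of the 10 genes. For monocyte-macrophage-like cells the shares were 57.7% (53.3% to 62.0%) in knockdown and 76.4% (71.7% to 80.6%) in control cells. Outside it they were 16.6% (15.5% to 17.7%) and 23.9% (22.2% to 25.7%). A monocyte-macrophage-like cell had on average 2.90 of the genes in the knockdown library and 3.46 in the control library. At least 5 genes were found in 13.5% and 21.7% of these cells. The intervals of the libraries did not overlap for 3 genes on either side of the class boundary.

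Most cells with 3 or more of the genes were not monocyte-macrophage-like. That cluster held 27.1% of them in the knockdown library and 32.3% in the control library. Neutrophil-like cluster 4 held 19.1% in both, and the progenitor-like cluster 20.6% in knockdown and 11.9% in control cells. Of all kept cells, the progenitor-like cluster held 26.7% in the knockdown and 16.3% in the control library. Within it, 14.3% of thinned knockdown and 21.6% of thinned control cells had at least 3 of the genes. Within cluster 4 these shares were 24.0% and 28.6%. Lyz2, Fcgr3 and Igsf6 were detected in 76.3%, 45.2% and 59.9% of the thinned knockdown cells of cluster 4, and in 78.5%, 48.5% and 61.6% of its control cells. With a cut of 5 genes, 0 cells of cluster 4 remained in either library (0 of 878 and 0 of 573).

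**Figure D4:**
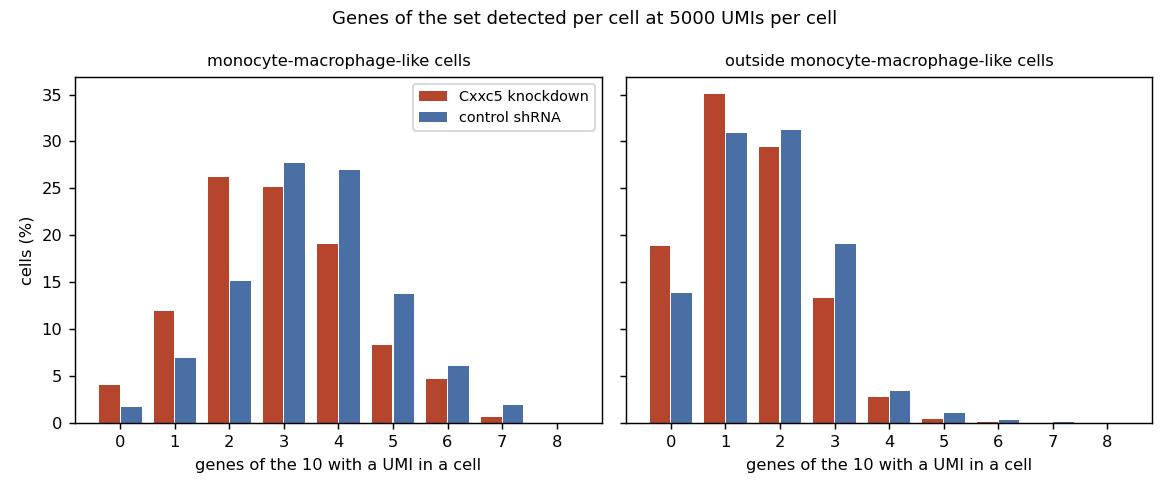
Share of cells by the number of the 10 genes with a UMI, at 5000 UMIs per cell, for Cxxc5 knockdown (red, left bars) and control shRNA (blue, right bars), inside the monocyte-macrophage-like cluster (left panel) and outside it (right panel). Inside the cluster the knockdown bars are taller at 0 to 2 genes and the control bars taller at 3 or more, with means of 2.90 in knockdown and 3.46 in control cells.

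The genes were also compared in pairs, as the number of cells with both over the number that the product of their 2 shares gives. Over all thinned cells, 33 of 45 pairs in the knockdown library and 34 in the control library were above their product. The highest values with at least 5 cells from the product joined the genes of the monocyte-macrophage-like and dendritic cell-like clusters. Ccr2 and Ms4a6c were found together in 111 knockdown cells, where the product gave 24.7 (log2 2.17), and in 104 control cells, where it gave 31.3 (log2 1.73). Csf1r and Ccr2 were together in 39 knockdown cells (log2 1.78) and 68 control cells (log2 1.87). Lyz2, present in 47.0% of knockdown and 56.1% of control cells, had log2 values between -0.12 and 0.42 over its 9 partners in both libraries. Clec4n and Igsf6 were together in 3 cells of each library, where the product gave 6.22 in the knockdown and 15.4 in the control library.

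Inside the monocyte-macrophage-like cluster the same pairs were closer to their product. Ccr2 and Ms4a6c were together in 55 knockdown cells, where the product gave 40.4 (log2 0.44), and in 60 control cells, where it gave 60.2 (log2 -0.01). Csf1r and Ccr2 had log2 values of 0.22 in knockdown and 0.43 in control cells. The median over the 45 pairs was 0.11 in the knockdown and 0.02 in the control library inside the cluster, and 0.20 and 0.31 over all cells. Counts are sparse here, since 75 knockdown and 70 control cells of the cluster had a Csf1r UMI after thinning, and no value of a single pair is read as a finding.

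**Figure D5:**
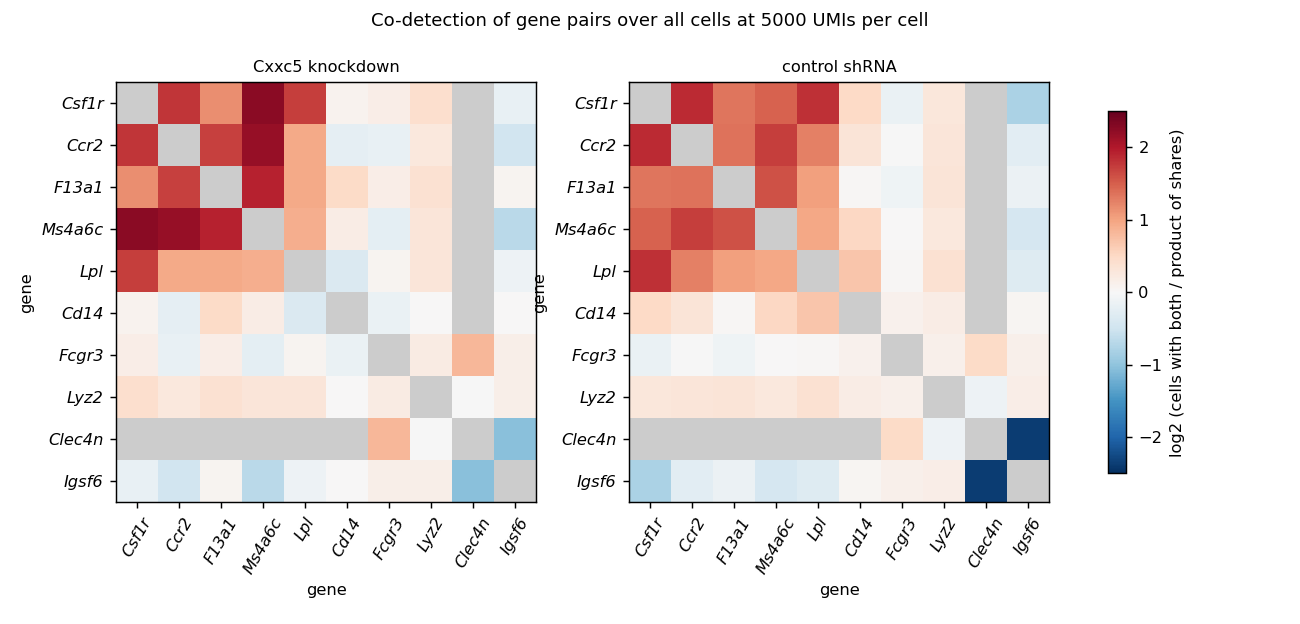
Co-detection of pairs of the 10 genes over all cells at 5000 UMIs per cell, as log2 of the cells with both over the product of their shares, for Cxxc5 knockdown (left) and control shRNA (right). Grey marks the diagonal and pairs whose product gave fewer than 5 cells. The block of Csf1r, Ccr2, F13a1, Ms4a6c and Lpl is red in both libraries, and Igsf6 is pale or blue with these 5.

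Over the 16 profiles of 8 clusters in 2 libraries, levels as log2(CPM + 1) were also correlated, in an order that differed from that of co-detection. Pearson's r was 0.98 for Ccr2 with Ms4a6c, 0.93 for Csf1r with Ms4a6c and 0.85 for F13a1 with Lpl. For Igsf6 it was -0.84 with Ms4a6c and -0.84 with Ccr2. The profiles share libraries, and each cluster enters once per library, so these values are descriptions. The 10 other genes most like the mean profile of the set, among 4678 genes, were Psap, Sike1, Capza2, Arhgap31, Cyfip1, Ctsc, Myo1g, Ifngr2, S100a4 and Rassf4, with r from 0.95 to 0.88. Inside the monocyte-macrophage-like cluster the log2 ratios of these 10 ran from -0.96 for S100a4, a calcium-binding protein, to 0.04 for Capza2, an actin-capping subunit. The lysosomal genes Psap and Ctsc were at -0.33 and -0.38, and Ifngr2, a chain of the interferon gamma receptor, at -0.05. The intervals of Sike1, Capza2, Cyfip1, Myo1g and Ifngr2 included 0. Both libraries entered the profiles by which these 10 were picked, so their ratios are not independent of that choice. The mean profile also stood unevenly for the set. Against the mean of the other 9, r ran from 0.83 for Csf1r to -0.58 for Igsf6, with Fcgr3 at -0.14 and Lyz2 at 0.06.

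Genes that act with these receptors were followed as lists, whose counts stand beside 5.74% of all measured genes at least 1.2-fold lower and 4.2% higher over all cells. None of the 5 ligand genes (Csf1, Il34, Ccl2, Ccl7, Ccl12) reached a mean of 5 CPM over all cells. Il34 and Ccl12 were at 0 in both libraries, and Csf1 had 38 UMIs in the knockdown and 30 in the control library. Of 9 adaptors and co-receptors, 8 were measured over all cells, 3 at least 1.2-fold lower and 1 higher. Fcer1g, the signalling chain of Fc receptors and of Dectin-2, had 347 CPM in the knockdown and 520 CPM in the control library (log2 ratio -0.58). Tyrobp, another such chain, had 379 and 493 CPM (log2 ratio -0.38). Tlr4 and Syk, which act beside CD14 and below CLEC4N, had log2 ratios of -0.08 and -0.14. Inside the monocyte-macrophage-like cluster 2 of 8 were lower and 2 higher, beside 11.8% and 10.5% of all genes.

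Of 9 transcription factors of the lineage, 6 were measured over all cells, 2 at least 1.2-fold lower and 1 higher. Klf4, a factor of monocyte differentiation, had 6.03 CPM in the knockdown and 10.0 CPM in the control library (log2 ratio -0.73), and Irf8 had 40.9 and 56.4 CPM (log2 ratio -0.46). Both are markers that named the cluster. Spi1, which encodes PU.1, had 321 and 355 CPM (log2 ratio -0.14), and Cebpb was higher, at 74.7 CPM in the knockdown and 62.1 CPM in the control library. Of 16 near copies and relatives, 7 were measured over all cells, 2 lower and 1 higher. Ccr1 had 3.26 CPM in the knockdown and 7.37 CPM in the control library (log2 ratio -1.18), and Clec4a2 39.5 and 60.2 CPM (log2 ratio -0.61). Clec4d, a lectin relative of Clec4n, was higher, at 29.2 CPM in the knockdown and 22.7 CPM in the control library. The Fc receptor Fcgr2b, which inhibits rather than activates, had 66.1 and 72.5 CPM (log2 ratio -0.13), beside -0.50 for Fcgr3. Of the 16 relatives, 9 were measured inside the monocyte-macrophage-like cluster, 5 at least 1.2-fold lower and 0 higher (median log2 ratio -0.29). All genes there stood at 11.8% lower and 10.5% higher.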

How the data were processed

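The deposited values are whole UMI counts per gene and barcode, made by the authors with Cell Ranger 2.1.1 on mm10 from 10x 3' version 2 libraries, per the submitters' processing notes and the labels' protocols. Which annotation release they used is not given in the sources used here. Totals were 62910229 UMIs (Cxxc5 knockdown) and 49333454 UMIs (control). Cells with at least 500 genes and at most 10% mitochondrial UMIs were kept, which removed 11 of 6015 and 13 of 2925 barcodes. Scrublet in scanpy 1.11.5 called 6 and 1 doublets, too few to rely on, so doublets were kept.

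Clusters came from 2000 variable genes, 30 components, 15 neighbours and Leiden resolution 0.6, without batch correction. Naming went by the marker list with most genes in a cluster's top 10 by fold (at least 50 CPM), given at least 3 markers raised 1.5-fold at 20 CPM, unless as many top genes belonged to other lists. This rule was set after the clusters were seen.

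CPM intervals are exact Poisson, shares exact Clopper-Pearson, and ratio intervals come from the exact binomial split of the UMIs. All take UMIs or cells as independent, and a limit for 0 cells is 3 over the number of cells. The arithmetic was tested on simulated data. The genes followed, the related lists and the markers were chosen with earlier results of these data known. Named were the 10 genes, Cxxc5, their listed relatives, up to 4 of each related list, the 10 genes of most alike profile and top genes of clusters.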

Additional observations from a re-analysis of the deposited data

How the results depend on the processing

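No paired analysis was possible because each group had 1 library. Over all cells, the median log2 ratio of the genes was -0.28 with the control library's cluster shares of UMIs. Under the other alternatives run it lay between -0.53 and -0.40. Inside the monocyte-macrophage-like class it was -1.09 when the class was cells with at least 0.2% of UMIs in its markers, a cut that left 21 and 22 cells, and between -0.55 and -0.34 under the others. Outside the class it was -0.49 at a minimum of 20 CPM (2 of 3 measured genes lower), -0.46 with no minimum, -0.48 at Leiden resolution 1.0 and -0.49 with the 0.2% cut. The class held 15.4% of knockdown and 18.9% of control cells at resolution 1.0, 14.8% and 16.0% with the genes allowed in the clustering, 0.350% and 0.755% at the 0.2% cut, and 11.7% and 16.4% at a 0.03% cut chosen after seeing the data. With each library clustered alone it held 13.8% and 0%, because control cells with these markers fell into a cluster named dendritic cell-like, so no ratio could be given. The share of cells with several of the genes was 49.7% and 59.9% for at least 2, 1.72% and 4.08% for at least 5, 9.22% and 17.5% at 3000 UMIs per cell, and 46.3% and 71.6% without thinning, higher in control cells in each. Single genes changed sign as follows. Inside the class Cd14 was 0.22, F13a1 0.64 and Ms4a6c 0.83 at the 0.2% cut, and Lpl was 0.34 at resolution 1.0 and 0.07 without the 10 cells richest in it. Outside the class Clec4n was 0.020 at the 0.03% cut and 0.15 without the dendritic cell-like cluster, and Lpl was -0.46 at resolution 1.0, -0.15 at the 0.2% cut and -0.03 with the genes allowed in the clustering. Over all cells Lpl was 0.01 with the control library's cluster shares of UMIs. The cause was not tested. Other scalings moved log2 ratios by at most 0.04. Depth limits Clec4n (73 and 239 UMIs) and Cd14 (558 and 511 UMIs).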
